A study of Mus musculus with 15 samples.

Results

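The enzymes that remove peroxides, superoxide and reactive electrophiles, and the glutathione and thioredoxin systems that recharge them, were read in mouse left ventricle under pressure overload. The set was chosen by gene symbol: glutathione peroxidases (Gpx), glutathione S-transferases (Gst), peroxiredoxins (Prdx), thioredoxins and their reductases (Txn), superoxide dismutases (Sod), glutaredoxins (Glrx), catalase (Cat), the enzymes of glutathione synthesis and reduction, Nqo1, Hmox1 and Hmox2. It held 64 probe sets of 49 genes, out of 12422 probe sets that are not array controls. Another 4 probe sets carried the symbol of Prdx1 or Glrx3 together with that of a second gene and were not used. The rule uses no measured value, but the set was chosen with earlier results of these data known.

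Total RNA was measured on 15 one-colour oligonucleotide arrays, from 3 female sham, 6 male sham, 3 female TAC and 3 male TAC hearts. TAC is the operation named in the titles, in a series on hypertrophy under pressure overload, and the descriptions call the sham samples controls. The labels give no strain, genotype, age, time after the operation or batch, and do not say whether the hearts are those of separate animals. The p-values therefore reflect the spread among these samples, which may be technical. The number of arrays limits the precision. Array medians lay between 21.2 and 26.7 intensity units, with the lowest on female TAC 1, and pairs of arrays correlated between 0.917 and 0.969 over the tested probe sets. Heart muscle markers were at high intensity on every array, with medians over the arrays of 6643 for Myl2 and 4983 for Myh6. Among the atrial markers, Sln was below 20 units on 13 of the 15 arrays and Myl7, Myl4 and Nppa on none. Myl7 and Myl4 had medians of 138 and 122. Nppa had medians of 243 in sham and 1742 in TAC hearts, and 298 over all arrays. The log2 difference of Nppa, TAC minus sham averaged over the sexes, was 2.83 ± 0.22 (limma adjusted p = 1.29e-06). In bulk tissue, fewer cells of a type and less RNA per cell cannot be told apart.

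Glutathione is a small thiol made in sequence by glutamate-cysteine ligase (Gclc and Gclm) and glutathione synthetase (Gss). Glutathione peroxidases spend it to reduce peroxides, transferases attach it to electrophiles, and glutathione reductase (Gsr) restores it with NADPH. Thioredoxins, kept reduced by thioredoxin reductases, do the same for protein disulfides and for peroxiredoxins. The heart, which is rich in mitochondria, relies on mitochondrial forms of several of these proteins, and the transcription factor Nrf2 is known to induce many of the genes through antioxidant response elements.

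The promoters of the 3 genes on which the comparison of TAC with sham turned most, Gpx3, Gsto1 and Gstk1, are shown because the genes had the smallest p-values among the members. They run from 250 bases before to 50 bases after the RefSeq gene start in build GRCm38.p6, 5′ to 3′ in the gene's direction. Capitals mark GGGCGG, the GC box, on the printed strand.
Gpx3, chr11:54902604-54902903, plus strand: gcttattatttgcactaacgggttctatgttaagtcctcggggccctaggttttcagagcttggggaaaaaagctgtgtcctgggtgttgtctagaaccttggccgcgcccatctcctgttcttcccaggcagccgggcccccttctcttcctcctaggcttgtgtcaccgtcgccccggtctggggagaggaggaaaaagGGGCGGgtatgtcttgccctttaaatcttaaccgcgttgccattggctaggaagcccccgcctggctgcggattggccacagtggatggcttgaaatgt
Gsto1, chr19:47854723-47855022, plus strand: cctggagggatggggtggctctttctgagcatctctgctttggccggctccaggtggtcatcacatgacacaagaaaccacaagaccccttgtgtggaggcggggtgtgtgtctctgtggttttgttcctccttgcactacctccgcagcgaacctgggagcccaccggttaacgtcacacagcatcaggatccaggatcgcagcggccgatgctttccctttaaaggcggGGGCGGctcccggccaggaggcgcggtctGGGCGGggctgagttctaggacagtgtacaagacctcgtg
Gstk1, chr6:42245685-42245984, plus strand: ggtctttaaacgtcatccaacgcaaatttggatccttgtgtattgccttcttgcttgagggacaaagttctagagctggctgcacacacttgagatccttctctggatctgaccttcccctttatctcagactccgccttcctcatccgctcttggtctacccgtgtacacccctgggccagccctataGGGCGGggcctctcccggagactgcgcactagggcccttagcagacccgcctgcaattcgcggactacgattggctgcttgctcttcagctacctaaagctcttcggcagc
The first base of the GC box stood at -49 in Gpx3, at -19 and 11 in Gsto1 and at -61 in Gstk1, counted from the gene start. GGGCGG, searched on both strands, was present in 63.6% of the 55 promoters of the 41 member genes that the table held, and in 35.7% of all 32851 promoters. The letters TGACNNNGC (core of the antioxidant response element), TGANTCA (AP-1) and ACGTG (core of the hypoxia response element) were not found on either strand in these 3 windows.

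TGACNNNGC was present in 10.9% of the member promoters and in 12.4% of all promoters, and its letters can overlap those of TGANTCA and ACGTG. The windows of the 6 member genes with a match are given because Nrf2 is known to act through this core, which is in capitals with 10 bases on either side. Each is printed 5′ to 3′ on the strand that carries the match.
Gclm, chr3:122245413-122245441, minus strand: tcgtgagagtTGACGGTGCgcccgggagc
Gsta3, chr1:21240454-21240482, plus strand: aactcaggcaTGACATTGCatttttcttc
Gstm5, chr3:107895802-107895830, plus strand: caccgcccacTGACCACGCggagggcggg
Sod1, chr16:90220696-90220724, minus strand: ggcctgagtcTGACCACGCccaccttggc
Txndc5, chr13:38528034-38528062, minus strand: gcctcgccgcTGACGTGGCgctagccgcc
Txnrd1, chr10:82859104-82859132, minus strand: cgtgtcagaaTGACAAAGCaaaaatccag
The match in Txndc5 overlapped an ACGTG, and the other 5 overlapped none of the other 3 motifs. Gsta3 was too dim to be tested, and the differences of the other 5 genes between TAC and sham lay between -0.03 and 0.20 on the log2 scale, none of them called. TGANTCA was present in 7.27% of member promoters and 7.81% of all promoters. ACGTG was present in 20% and 19.6%. A match is a description of letters, not a measured site.

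Of the 48 member probe sets bright enough to be tested, which stood for 41 genes, 1 was called with TAC averaged over the sexes, that of Gpx3, which rose. Of all 7453 tested probe sets, 0.322% were called by limma (adjusted p under 0.05), with 20 higher (0.268%) and 4 lower. At an unadjusted p under 0.05 there were 5 member probe sets (10.4%), beside 7.51% of all tested. Of these members 2 were higher and 3 lower, beside 2.86% and 4.66% of all tested. The log2 differences of the members, TAC minus sham, ran from -0.48 to 0.84 with a median of 0.05, and 29 were positive and 19 negative. For all tested probe sets the median was -0.03, with 3119 positive and 4334 negative. Among the tested members, Gpx3 alone differed by more than 1.5-fold. The difference was within 0.25 of 0 on the log2 scale for 87.5% of the members and 87.3% of all tested probe sets. The 95% interval lay within 0.5 of no change on both sides for 35 of the 48, so that larger differences of those 35 were outside their intervals. With the arrays centred on their medians, 38 members were higher and 10 lower, with a median of 0.11, where that of all tested was 0.03. The balance of signs among the members changed with the setting. Quantile normalization gave 32 higher and 16 lower, and leaving out female TAC 1 gave 36 and 12. A lower floor and an offset in place of the floor each gave 25 and 22. Without the filter on dim probe sets there were 31 and 33, and without female TAC 2 there were 24 and 23.

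**Figure D1:**
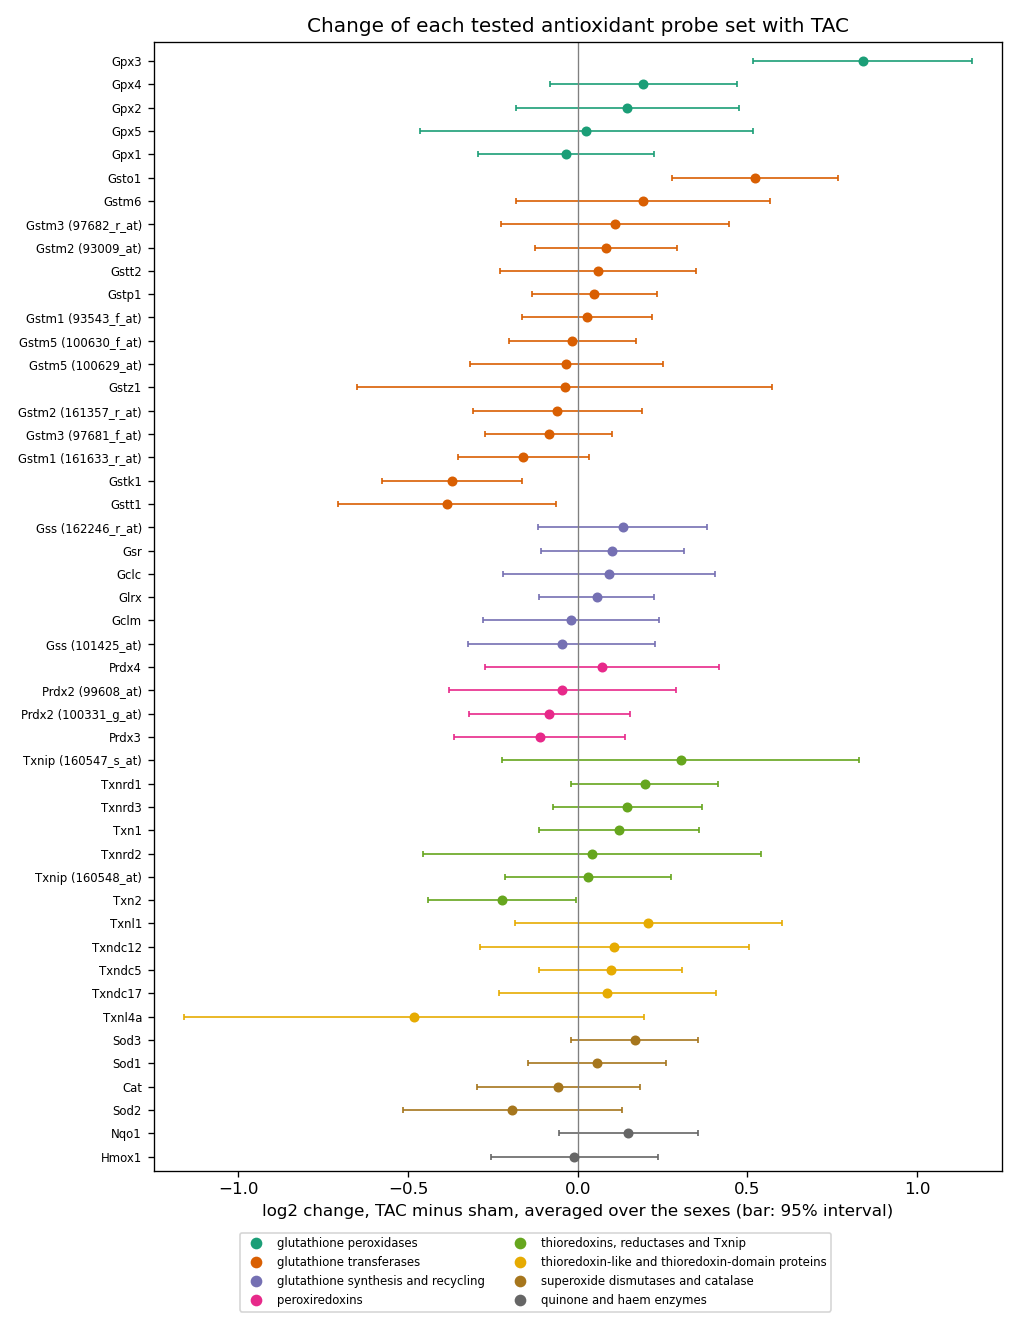
Log2 change (TAC minus sham, averaged over the sexes, x axis) of each of the 48 tested member probe sets (y axis), coloured by family, with bars for 95% intervals from limma. The interval of Gpx3 runs from 0.52 to 1.16, and most other intervals include 0.

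Glutathione peroxidases were represented by 6 genes and 7 probe sets, of which 5 probe sets of 5 genes were tested. Gpx3, the secreted selenium-containing peroxidase of plasma and extracellular fluid, had intensities of 662, 590.1 and 480.5 in the female sham hearts. In the male sham hearts it read 321, 512, 379, 376, 607 and 520.5. In the TAC hearts it read 898, 1187 and 863 in females and 917, 952 and 658 in males. Within each sex every TAC heart was above every sham heart, and over both sexes the groups just overlapped, since male TAC 6 at 658 lay below female sham 1 at 662. Such separation within both sexes was found for 0.443% of all tested probe sets, and among the members for Gpx3 and Gsto1.

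In females the mean intensity of Gpx3 was 577 ± 91.3 (SD, n = 3) with sham and 983 ± 178 (SD, n = 3) with TAC. In males it was 452 ± 110.1 (SD, n = 6) with sham and 843 ± 161 (SD, n = 3) with TAC. The rise averaged over the sexes was 0.84 ± 0.15 (SE) on the log2 scale, or 1.79-fold, with a 95% interval of 1.43 to 2.24 and a limma adjusted p of 0.0214. The difference was 0.76 ± 0.23 in females and 0.91 ± 0.20 in males, and neither was called within a sex (limma adjusted p = 0.823 and 0.136). The female minus the male value was -0.15 ± 0.31 (unadjusted p = 0.63). The averaged call was lost without female sham 2, female sham 3, female TAC 2, male TAC 4 or male TAC 5 (limma adjusted p from 0.0512 to 0.0996), while the value stayed between 0.77 and 0.92 whichever array was left out. The call held under 9 of 12 alternative settings. It was lost with a floor of 3.09 in place of 20 intensity units (adjusted p = 0.0556) and with no filter on dim probe sets (0.134). A block for same-numbered samples, which were not taken to be pairs, also lost it (limma adjusted p = 0.0558).

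Most fibroblast markers lay higher with TAC, as did Gpx3: 7 of the 9 tested were higher, 5 of them at an unadjusted p under 0.05, none was called, and the list's median was 0.38. Dcn, the proteoglycan decorin, had a log2 difference of 0.51 ± 0.13 (limma adjusted p = 0.162) and Lum, lumican, one of 0.57 ± 0.12 (0.0585). That of Mgp was 1.05 ± 0.25 (0.0982). Col1a2 and Dpt, the 2 that were lower, had log2 differences of -0.03 ± 0.08 and -0.01 ± 0.24. The summed intensity of the 9 markers ran from 1762 to 1901 in female sham and 1381 to 1895 in male sham hearts. In TAC hearts it ran from 1848 to 2811 in females and 1986 to 2323 in males. Dcn was the brightest of the 9 and weighed most in the sum, with medians of 836 in sham and 1168 in TAC hearts. The part of fibroblasts in the rise of Gpx3 was not tested. Red cell markers were higher in 1 of 4 cases, and their sums of 861 to 1524 in sham hearts and 819 to 1534 in TAC hearts overlapped. Ptprc, Adgre1, Itgam and Fcer1g, which mark leukocytes, were below 20 units on all 15 arrays, and 3 of 6 tested leukocyte markers were higher.

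The other peroxidases did not pass the test. Gpx4, which reduces lipid hydroperoxides in membranes, read 168 to 273 in sham and 206 to 302 in TAC hearts, a difference of 0.19 ± 0.13. Gpx1, the abundant peroxidase of cytosol and mitochondria, read 75.7 to 125 in sham and 93.0 to 131 in TAC hearts, a difference of -0.03 ± 0.12 with a 95% interval of -0.29 to 0.22. The interval leaves out a difference of the size measured for Gpx3. Gpx2, known from the gut epithelium, had a log2 difference of 0.15 ± 0.16. Gpx5, known from the epididymis, was tested through the brighter of its 2 probe sets, which had a log2 difference of 0.02 ± 0.23. Gpx7 was below 20 units on all 15 arrays.

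**Figure D2:**
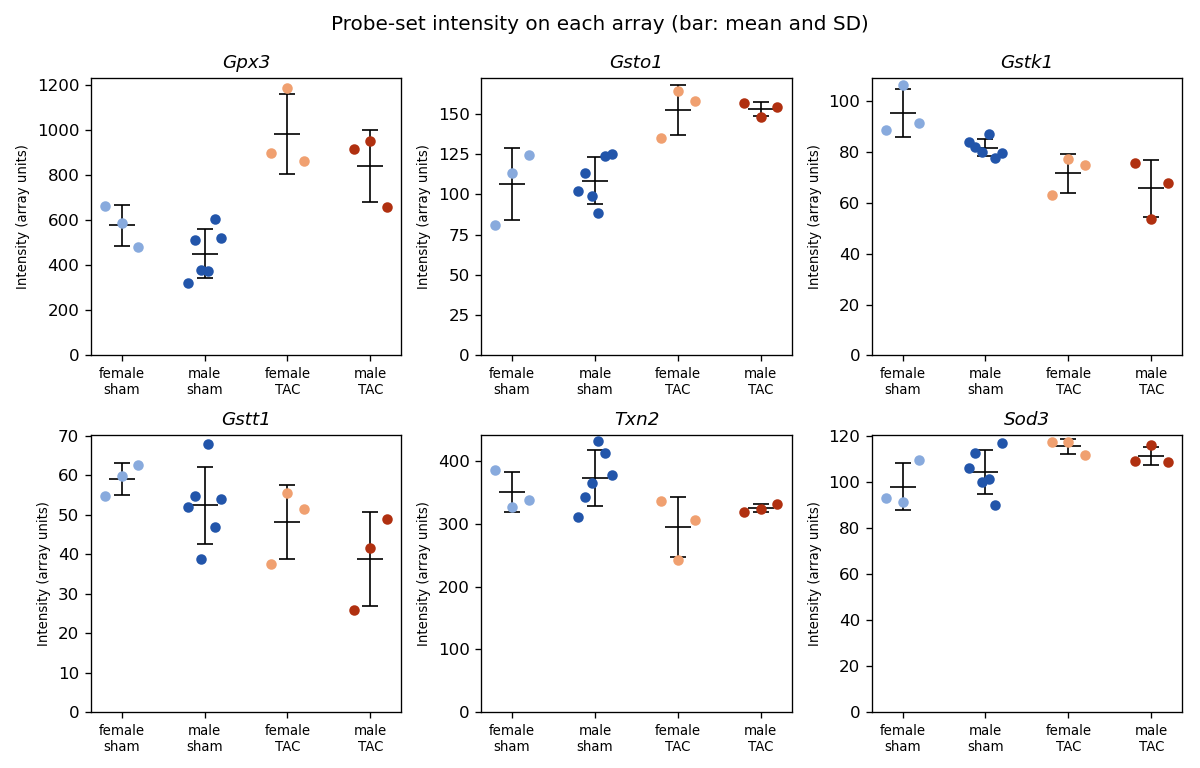
Probe-set intensity in array units (y axis, linear from 0) in each heart of the 4 groups for 6 members, with the mean and SD of each group. Gpx3 and Gsto1 are higher in every TAC heart than in the sham hearts of the same sex, Gstk1 is lower, and the groups of Gstt1, Txn2 and Sod3 overlap.

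The glutathione transferases were the largest family, with 15 genes and 22 probe sets, of which 15 probe sets of 11 genes were tested. None was called with TAC, 7 were higher and 8 lower, and the median difference was -0.02. With the arrays centred on their medians, 10 were higher and 5 lower, with a median of 0.04. Quantile normalization again gave 7 higher and 8 lower, and a lower floor gave 6 and 9 with a median of -0.06. The 3 with an unadjusted p under 0.05 were Gsto1, Gstk1 and Gstt1, each of a class with its own chemistry.

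Gsto1, of the omega class, which reduces dehydroascorbate and protein mixed disulfides, read 81.3, 113 and 124 in female sham hearts and 102, 113, 98.8, 88.5, 124 and 125 in male sham hearts. It read 135, 164 and 158 in female TAC and 157, 148 and 154 in male TAC hearts. Every TAC heart was above every sham heart, a separation met by 0.255% of all tested probe sets, and the groups stayed apart after quantile normalization and after division by the array median. The log2 difference was 0.52 ± 0.12 (SE), or 1.44-fold with a 95% interval of 1.21 to 1.70, with 0.54 ± 0.17 in females and 0.51 ± 0.15 in males. Without female sham 1, the lowest of its group, the value in females was 0.36. The limma adjusted p was 0.0711, so Gsto1 was not called. It was called under 7 of 12 alternative settings, with adjusted p-values between 0.0124 and 0.155 over the 12, and under none of the 15 runs that left out 1 array (0.0625 to 0.211).

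Gstk1, the kappa-class transferase of mitochondria and peroxisomes, read 88.6, 106 and 91.5 in female sham hearts and 84.0, 82.0, 80.1, 87.1, 77.6 and 79.5 in male sham hearts. It read 63.1, 77.5 and 74.8 in female TAC and 75.6, 53.6 and 68.0 in male TAC hearts. Every TAC heart was below every sham heart, by a margin between female TAC 2 at 77.5 and male sham 8 at 77.6, as for 0.161% of all tested probe sets. Separation within both sexes in this direction was found for 0.255%. The ranges overlapped slightly after quantile normalization, with the lowest sham at 76.3 and the highest TAC at 78.8. They also overlapped after division by the array median, with 76.07 and 79.45. The log2 difference was -0.37 ± 0.10, or 1.29-fold lower, with a limma adjusted p of 0.182. No alternative called it, with adjusted p-values from 0.0557 to 0.352.

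Gstt1, of the theta class, read 38.7 to 68.0 in sham and 25.9 to 55.6 in TAC hearts. These ranges overlapped, and the log2 difference was -0.39 ± 0.15 (limma adjusted p = 0.531), or -0.25 without male TAC 4. Gstp1, the pi-class enzyme, read 264 to 341 in sham and 277 to 335 in TAC hearts, with a difference of 0.05 ± 0.09. The mu class was read by 9 tested probe sets of Gstm1, Gstm2, Gstm3, Gstm5 and Gstm6, whose differences ran from -0.16 to 0.19. These genes are close in sequence and lie together on chromosome 3, and several of their probe sets carry suffixes that mark probes shared with other transcripts, so the genes cannot be fully separated. The brighter Gstm1 probe set read 557 to 698 in sham and 587 to 732 in TAC hearts, a difference of 0.03 ± 0.09, while the other had a log2 difference of -0.16 ± 0.09, or -0.10 without female sham 2. Gstt2 had a log2 difference of 0.06 ± 0.14 and Gstz1, known for tyrosine breakdown, one of -0.04 ± 0.29.

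The alpha class was dim: the probe sets of Gsta1, Gsta3 and Gsta4 were below 20 units on all 15 arrays, and that of Gsta2 read at most 26.8. These 4 genes were not tested. Gsta4 was listed at 0 on some arrays, and no fold change is given for them.

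Glutathione synthesis and recycling were read by 6 probe sets of 5 genes, all tested and none called, with a median difference of 0.07 and 4 higher. Gclc, the catalytic subunit of glutamate-cysteine ligase, had a log2 difference of 0.09 ± 0.15 and Gclm, its modifier subunit, one of -0.02 ± 0.12. Both were dim, with 5 of the 9 sham and 2 of the 6 TAC arrays below 20 units for each. The 2 probe sets of Gss differed in sign, -0.05 ± 0.13 and 0.13 ± 0.12, and neither had an unadjusted p under 0.05. Gsr had a log2 difference of 0.10 ± 0.10. Glrx, which removes glutathione from proteins, had the smallest residual SD of the 48 tested probe sets, 0.07 on the log2 scale, with 59.7 to 66.6 in sham and 61.0 to 72.5 in TAC hearts and a difference of 0.06 ± 0.08.

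Peroxiredoxins were read by 5 probe sets of Prdx2, Prdx3 and Prdx4, of which 4 were tested, and none was called. Prdx3, the mitochondrial peroxiredoxin, read 131 to 187 in sham and 118 to 187 in TAC hearts and had a log2 difference of -0.11 ± 0.12. The brighter probe set of Prdx2, the cytosolic form that is abundant in red cells, had a log2 difference of -0.08 ± 0.11. Prdx4, the form of the endoplasmic reticulum, had a log2 difference of 0.07 ± 0.16.

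In the thioredoxin system, 7 of 8 probe sets of 6 genes were tested, 6 were higher and 1 lower, and none was called. The lower one was Txn2, mitochondrial thioredoxin, which read 386, 327 and 338 in female sham and 337, 243 and 305 in female TAC hearts. In males it read 310 to 431 in sham and 319, 324 and 331 in TAC hearts. The groups overlapped, and the log2 difference was -0.22 ± 0.10 (limma adjusted p = 0.644). Txn1, the cytosolic thioredoxin, read 238 to 354 in sham and 257 to 356 in TAC hearts, a difference of 0.12 ± 0.11.

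Among the reductases, Txnrd1, the cytosolic form, had a log2 difference of 0.20 ± 0.10 (unadjusted p = 0.0713), or 0.13 without male TAC 6, with 6 of 9 sham and 2 of 6 TAC arrays below 20 units. Txnrd2, the mitochondrial form, had a log2 difference of 0.04 ± 0.24 and Txnrd3 one of 0.15 ± 0.10. The tested Txnrd3 probe set read 345 to 527 in sham hearts, while the other read at most 8.83 on any array. Which of them follows the gene was not tested. Txnip, which binds and inhibits thioredoxin, varied widely through its brighter probe set, from 186 to 594 in sham and from 156 to 566 in TAC hearts. The highest value was that of male sham 7, followed by male TAC 4, and the log2 difference was 0.30 ± 0.25. The other Txnip probe set had a log2 difference of 0.03 ± 0.12.

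The thioredoxin-like and thioredoxin-domain genes had 7 probe sets, of which 5 were tested and none was called. Txndc5, a disulfide isomerase of the endoplasmic reticulum, read 216 to 318 in sham and 259 to 319 in TAC hearts, with a difference of 0.10 ± 0.10. Txnl4a, a spliceosome protein that has a thioredoxin fold, had the most negative difference of the members, -0.48 ± 0.32. That value rested on female TAC 1, at 20.8 units where the other TAC hearts read 99.1 to 137, and without that array the log2 difference was -0.05. Txnl1, Txndc12 and Txndc17 had log2 differences of 0.21 ± 0.19, 0.11 ± 0.19 and 0.09 ± 0.15.

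Superoxide dismutases turn superoxide into hydrogen peroxide, which catalase breaks down in peroxisomes. None of the 4 tested probe sets was called, and 2 were higher. Sod1, the copper-zinc enzyme of the cytosol, read 274 to 349 in sham and 292 to 370 in TAC hearts, a difference of 0.06 ± 0.10 with a 95% interval of -0.15 to 0.26. Sod2, the manganese enzyme of mitochondria, had a log2 difference of -0.19 ± 0.15. Sod3, the secreted form, read 90.3 to 117 in sham and 109 to 118 in TAC hearts, a difference of 0.17 ± 0.09 (limma adjusted p = 0.72). Cat, through its brighter probe set, had a log2 difference of -0.06 ± 0.11. The other Cat probe set read at most 25.6 units and was not tested. The tested probe sets of Cat, Gpx5 and Nqo1 also carry a suffix that marks probes shared with other transcripts.

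Hmox1, the inducible haem oxygenase, read 112 to 150 in sham and 90.2 to 154 in TAC hearts and had a log2 difference of -0.01 ± 0.12, with a 95% interval of -0.25 to 0.24. Nqo1, the quinone reductase, was dim. It read 7.82 to 23.5 in sham and 11.6 to 31.4 in TAC hearts, with 8 of 9 sham arrays below 20 units, and had a log2 difference of 0.15 ± 0.10 with the floor at 20. With the floor at 3.09 it was 0.50, and neither was called. Hmox2 read at most 23.7 units and was not tested.

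In all, 16 member probe sets were too dim on the mean over all 15 arrays to be tested, and 10 of them were below 20 units on every array. Besides those named above, they were second probe sets of Gpx5, Gstm5, Gstm6, Prdx2, Nqo1 and Txnrd3, and the probe sets of Txndc9 and Txndc16. Across the 15 arrays, female TAC 2 held the highest value of 15 of the 48 tested members, and also of 17.9% of all tested probe sets. Female TAC 1 held the lowest value of 7 members and of 17.7% of all tested probe sets.

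**Figure D3:**
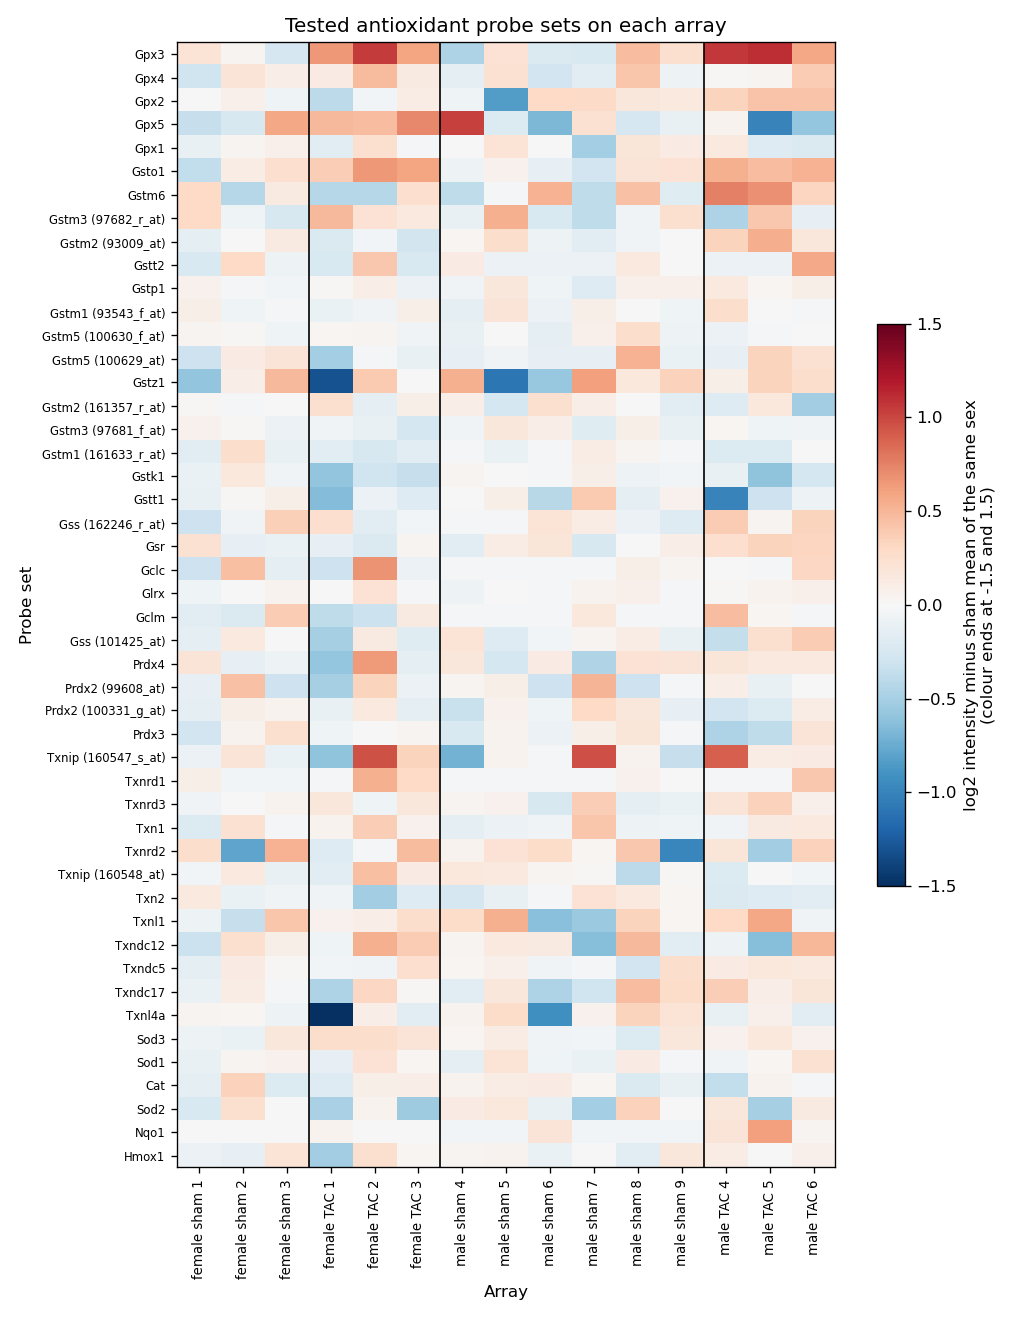
Log2 intensity of the 48 tested member probe sets (y axis) on each of the 15 arrays (x axis, grouped by sex and operation) minus the sham mean of the same sex, with colours ending at -1.5 and 1.5. The row of Gpx3 is red in all 6 TAC hearts, and most rows are pale in both operations, apart from single arrays such as Txnl4a on female TAC 1.

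Taken by sex, limma called no member in females, where 0.0805% of all tested probe sets were called, or in males, where 0.134% were. At an unadjusted p under 0.05 there were 3 members in females (6.25%, beside 4.59% of all tested), namely Gpx3, Gsto1 and Gstk1. In males there were 8 (16.7%, beside 6.2%): the same 3 genes with Gstt1, Gstm2, Gstm6, Nqo1 and Gsr. Of these 8, 6 were higher and 2 lower, beside 2.98% and 3.22% of all tested. Trended eBayes called Gpx3 in males (adjusted p = 0.0493), and no other alternative called a member in either sex. The difference had the same sign in both sexes for 58.3% of the members and 58.1% of all tested probe sets.

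The TAC effect in females minus that in males was called by limma for 0% of the tested probe sets, and so for no member. At an unadjusted p under 0.05 this contrast held 3 members (6.25%, beside 2.56% of all tested). Gstm2, in the brighter of its 2 probe sets, read 50.1, 55.1 and 60.2 in female sham and 47.2, 53.4 and 45.3 in female TAC hearts. In males it read 39.3 to 52.9 in sham and 55.5, 64.3 and 49.4 in TAC hearts. The TAC effect was -0.18 ± 0.15 in females and 0.35 ± 0.13 in males, and the female minus the male effect was -0.53 ± 0.20 (limma adjusted p = 1). The second Gstm2 probe set went the other way, with a TAC effect of 0.06 ± 0.18 in females and -0.18 ± 0.15 in males. Its female minus male effect was 0.25 ± 0.24, and averaged over the sexes its log2 difference was -0.06 ± 0.12. For Gstm6 the female minus the male effect was -0.79 ± 0.35 and for Gpx5 1.07 ± 0.46, both from dim probe sets with arrays below 20 units.

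Between female and male sham hearts, limma called 0% of the tested probe sets and no member. The 3 members with an unadjusted p under 0.05 (6.25%, beside 4.71% of all tested) were all higher in females, as were 3.31% of all tested: Gstm2 by 0.32 ± 0.13, Gclm by 0.35 ± 0.16 and Gstm5 by 0.38 ± 0.18 on the log2 scale (limma adjusted p = 0.974 for each). Without female sham 3 the value for Gclm was 0.16. Gclm was below 20 units on 5 of the 9 sham arrays and this Gstm5 probe set on 3. The second Gstm2 probe set had a female minus male sham difference of -0.05 ± 0.15, and the brighter Gstm5 probe set one of 0.02 ± 0.12. For Gpx3 the same difference was 0.38 ± 0.20 (unadjusted p = 0.0785).

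**Figure D4:**
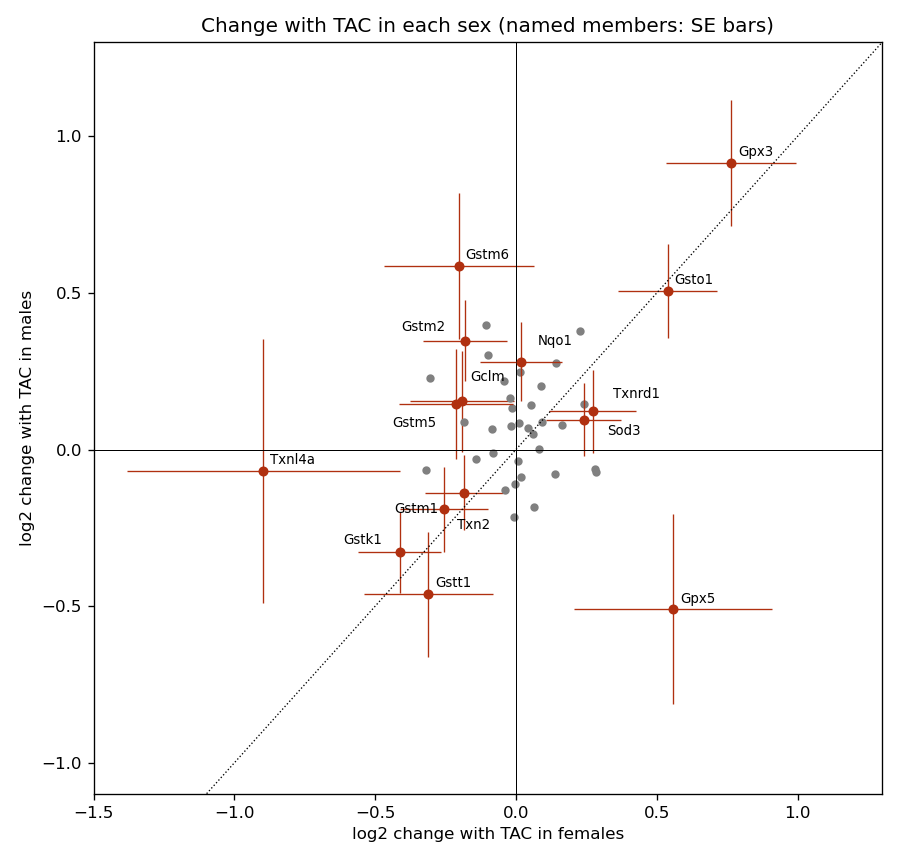
Log2 change with TAC in females (x axis) against that in males (y axis) for the 48 tested member probe sets, with SE bars on the named ones and a dotted line of equality. Gpx3 and Gsto1 lie in the upper right near the line, Gstk1 and Gstt1 in the lower left, and Gstm2, Gstm6 and Gpx5 away from it.

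Lists of genes around these enzymes were read in the same fit, with 65 tested genes in 8 lists, and none was called. Beside the counts of direction below, 3119 of all 7453 tested probe sets were higher and 4334 lower, with a median of -0.03. NADPH feeds both systems, and 8 of the 11 tested genes of NADPH supply were lower, with a median of -0.10. Nnt, which makes NADPH in the inner mitochondrial membrane, read 857 to 1103 in sham and 698 to 897 in TAC hearts and had a log2 difference of -0.35 ± 0.09 (limma adjusted p = 0.156). Idh2, the mitochondrial NADP-dependent isocitrate dehydrogenase, read 1531 to 1811 in sham and 1086 to 1594 in TAC hearts and had a log2 difference of -0.33 ± 0.10 (0.32). Heart muscle markers were lower in 6 of 8 cases beside Nnt, Idh2 and Gstk1, with a median of -0.06 and none called. Ryr2, the calcium release channel, had a log2 difference of -0.52 ± 0.13 (limma adjusted p = 0.166) and Myh6, a myosin heavy chain, one of -0.32 ± 0.13 (0.559), the 2 with an unadjusted p under 0.05. The summed intensity of the 8 markers ran from 30150 to 35940 in sham and from 30090 to 37360 in TAC hearts, and the part of heart muscle cells in these values was not tested. The pentose phosphate enzyme Pgd had a log2 difference of -0.06 ± 0.10.

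Of 7 tested regulators of the Nrf2 pathway, 5 were higher, with a median of 0.14. Sqstm1, the autophagy adaptor that binds the Nrf2 inhibitor Keap1, read 271 to 452 in sham and 345 to 677 in TAC hearts and had a log2 difference of 0.52 ± 0.15 (limma adjusted p = 0.229). Nfe2l2, which encodes Nrf2, had a log2 difference of -0.02 ± 0.12. Of 8 other Nrf2 targets, 2 were higher and 6 lower, with a median of -0.02.

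Among 7 other selenoproteins and genes of selenocysteine synthesis, Msrb1, a methionine sulfoxide reductase, read 307 to 392 in sham and 395 to 440 in TAC hearts, and had a log2 difference of 0.25 ± 0.09 (limma adjusted p = 0.408). The ranges did not overlap as deposited, as for 0.255% of all tested probe sets, but did after quantile normalization and after division by the array median. The other 6 had unadjusted p-values of 0.335 or more. In the list of other glutathione genes, Abcc5, an exporter of organic anions, had a log2 difference of -0.25 ± 0.09 (adjusted p = 0.455). In the list of repair genes, Nudt1, which clears oxidised nucleotides, had a log2 difference of -0.39 ± 0.12 (0.314), Ogg1, which excises oxidised guanine from DNA, one of -0.36 ± 0.17 (0.645) and Pon2, a paraoxonase, one of 0.31 ± 0.13 (0.585). The 7 genes of reactive oxygen sources and the 9 of metal handling had no unadjusted p under 0.05.

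**Figure D5:**
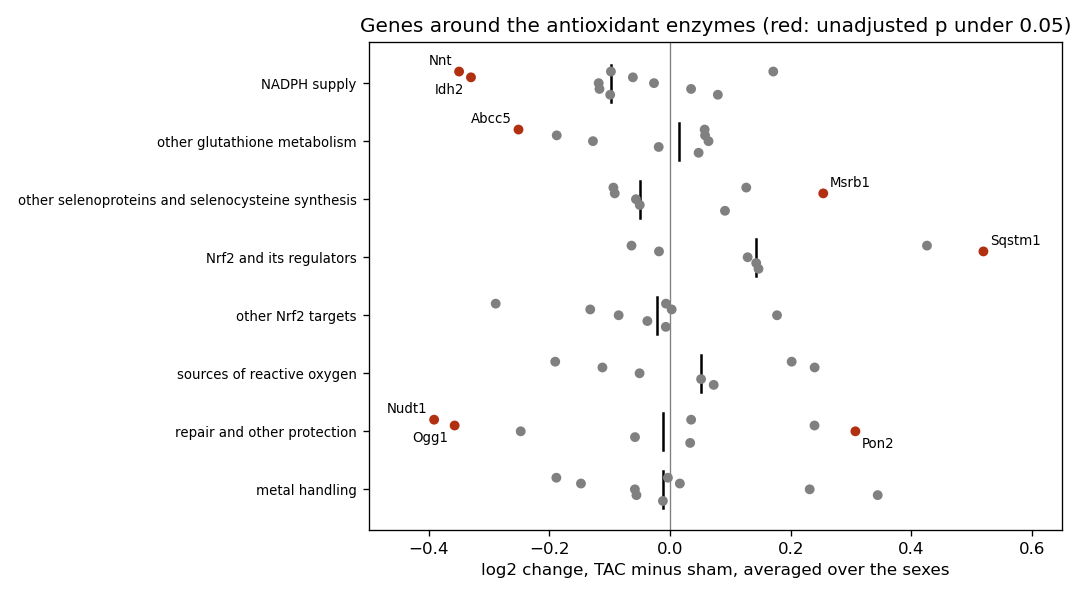
Log2 change with TAC averaged over the sexes (x axis) of each tested gene in the 8 surrounding lists (y axis), with a black line at each list's median and red for an unadjusted p under 0.05. Nnt and Idh2 lie at -0.35 and -0.33 and Sqstm1 at 0.52, and the list medians lie between -0.10 and 0.14.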

How the data were processed

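The deposited table holds linear probe-set intensities of 12488 probe sets on 15 arrays. How the authors made them (software, background correction, scaling) is not given in the sources used here. Array medians ran from 21.2 to 26.7, and the arrays were kept as deposited, with median centring and quantile normalization as alternatives. After leaving out 66 control probe sets, values under 20 were set to 20 and log2 was taken, which shrinks the changes of dim genes; 42.4% to 48.4% of an array's probe sets were below 20. The brightest 60% by mean over all arrays were tested, 7453 in all.

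Symbols came from the platform annotation: 10833 probe sets had 1 symbol, 396 several and 1193 none, and those with several were not named. Checking them against a RefSeq gene table of GRCm38.p6 changed no member.

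A linear model with 4 group means was fitted with limma 3.58.1 (lmFit, eBayes) in R 4.3.3. Benjamini-Hochberg adjustment ran over all tested probe sets, with calls at an adjusted p under 0.05. Errors are SE unless SD is stated. Tested on simulated data without floor or correlation, with 200 of the 7453 probe sets shifted, the averaged effect recovered 56.7% of log2 changes of 0.5, 95.5% of those of 1 and 100% of those of 2. There were 7 false calls. The measured data gave 24 calls for this effect. The adjustment is stricter when fewer probe sets change, so recovery in the measured data may have been lower.

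Genes named by rule were members called in any contrast, the 10 of smallest p for the averaged effect, the 3 of smallest p in each other contrast, members whose probe sets disagreed in sign with one at an unadjusted p under 0.05 (none did), and up to 3 genes of smallest p per surrounding list. Other genes named describe their family and were chosen after their values were seen. In the surrounding lists the brightest probe set stood for a gene. The members and lists were chosen with earlier results of these data known. Same-numbered sham and TAC samples were not treated as pairs. Alternatives changed the scaling, floor, filter, variance model, covariates and arrays.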

Additional observations from a re-analysis of the deposited data

Results flagged for a closer look

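In 7 of the 48 tested member probe sets, 1 of the 6 male sham hearts stood apart from the other 5 by a gap of more than 0.625 of the group's range, where chance gives about 1 in 20 groups. That is 14.6% of the members, beside 6.76% of all tested probe sets (504 of 7453), of which male sham 7 was the array for 166. The groups of 3 were not examined in this way. Male sham 7 was lowest for Gpx1, at 75.7 units against 107 to 125 in the others. It was highest for Txn1, at 354 against 240 to 255, and for the brighter probe set of Txnip, at 594 against 186 to 316. Male sham 8 was highest for the dimmer tested probe set of Gstm5, at 31.4 against 16.6 to 21.1, and lowest for the other Txnip probe set, at 41.2 against 54.7 to 60.2. Male sham 6 was lowest for Txnl4a, at 58.9 against 115 to 141. Male sham 9 was lowest for Txnrd2, at 34.6 against 69.7 to 90.4. No male sham heart stood apart in this way for Gpx3, Gsto1 or Gstk1, and their female sham and TAC hearts were not examined.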

How the results depend on the processing

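For the averaged effect, 1 member was called (Gpx3). The count was 2 (Gpx3 and Gsto1) with quantile normalization, median centring, log2 of the value plus 20 without a floor, trended eBayes, array weights, an additive model and sex left out of the model, and 1 with a stricter filter (the top 40%) and with robust eBayes. It was 0 with a floor at the 10th percentile, with no filter on dim probe sets, which tests more probe sets, and with a replicate block. Without any single array it was 0 to 1. In males the count was 0, and 1 with trended eBayes. In females, for the difference between the sexes and between sham hearts it was 0 under every alternative run. The causes were not tested. No member named by the rule had a change that turned sign under any alternative run; the surrounding genes were not rerun. The adjusted p of Gpx3 under the block was 0.0558, with a change of 0.92. The correlation of deviations between same-numbered samples was 0.244, 0.270, 0.117, 0.0641, -0.0828 and 0.0136 for numbers 1 to 6, so the numbers were not taken to pair the samples. Numbers 1 to 4 but not 5 and 6 matched their own number best. Over all tested probe sets, 24 were called for the averaged effect, 45 with quantile normalization (37 higher), 44 with centring (39 higher), 68 with array weights (43 higher), 10 with the lower floor, 13 without the filter, 8 with the block, and 12 to 29 without 1 array (16 higher of 29 without male TAC 6). The floor limits what can be read from Gclc, Gclm, Nqo1, Txnrd1 and the alpha-class transferases.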
